A study of Mus musculus with 3 samples.

Results

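Transcripts made from the mitochondrial genome were followed in sorted mouse bone marrow cells. The members were the genes whose symbol in the deposited files starts with mt-, and 9 of the 11419 listed genes met that rule. They were the ribosomal RNAs mt-Rnr1 and mt-Rnr2 and the messenger RNAs mt-Nd1, mt-Nd2, mt-Co1, mt-Nd4, mt-Nd5, mt-Nd6 and mt-Cytb. The study held 3 libraries of 1 group, bone marrow cells of the inbred mouse strain C57BL/6 sorted as carrying CD11b, F4/80 and CD169 on their surface and lacking CX3CR1. No treatment, genotype, age or control population was given in the labels, so each level was set against a fixed level or against other genes. Separate mice are not named for the libraries, so the spread that p-values measure here may be a technical one. Libraries were made with a kit for mRNA, and a value in CPM gives a gene's reads for every 1000000 assigned to the listed genes.

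The mitochondrial genome is a small circle of DNA that encodes proteins of the respiratory chain together with the ribosomal and transfer RNAs used to translate them. Both of its strands are copied into long RNAs that span many genes, and the transfer RNAs are cut out to release the messenger and ribosomal RNAs. Most of the messenger RNAs then receive short poly(A) tails, through which a kit for mRNA can capture them. Neutrophils, the most common granulocytes of marrow, are known for few mitochondria when mature and for energy drawn mainly from glycolysis.

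Depths recovered from the CPM were 5150020, 40149274 and 37604930 for replicates 1, 2 and 3, counted in reads, so counting error was largest in replicate 1. All 10 neutrophil markers were above 10 CPM, with summed levels of 219580, 219341 and 183758 CPM. The 10 macrophage markers summed to 218, 218 and 247 CPM, with 5 above and 5 below 10 CPM. Of the genes of the sort gate, Itgam (CD11b) at 503 ± 55.1 CPM and Adgre1 (F4/80) at 22.2 ± 3.97 CPM were above 10 CPM, and Cx3cr1 was below, at 0, 0.423 and 0 CPM. Siglec1, the gene of CD169, was also below, at 0.388, 3.66 and 4.57 CPM (2, 147 and 172 reads), and was lowest in replicate 1. It was below although the cells were sorted as positive for its protein. The cells are therefore called by their gate here. Whether less RNA of a kind came from fewer cells or from less RNA per cell cannot be told apart in such bulk libraries. Replicate 1 also stood apart in its basophil markers (919 CPM in replicate 1, against 124 and 134 CPM in replicates 2 and 3), erythroid markers (858, against 474 and 457 CPM) and the 2 listed megakaryocyte markers (48.0, against 7.32 and 7.31 CPM). Eosinophil markers were lowest in replicate 1, with sums of 492, 787 and 1186 CPM.

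The GENCODE M21 annotation of GRCm38, the assembly also called mm10, holds 37 mitochondrial genes. Both of the 2 ribosomal RNAs were listed, as were 7 of 13 messenger RNAs and 0 of 22 transfer RNAs. The messenger RNAs not listed, whose levels were not analysed here, were mt-Co2, mt-Co3, mt-Atp6, mt-Atp8, mt-Nd3 and mt-Nd4l. All 37 have 1 exon in the annotation. The listed genes of the plus strand are mt-Rnr1 (chrM:70-1024), mt-Rnr2 (chrM:1094-2675), mt-Nd1 (chrM:2751-3707), mt-Nd2 (chrM:3914-4951), mt-Co1 (chrM:5328-6872), mt-Nd4 (chrM:10167-11544), mt-Nd5 (chrM:11742-13565) and mt-Cytb (chrM:14145-15288). The only listed gene of the minus strand is mt-Nd6 (chrM:13552-14070).

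The ends of the listed messenger RNAs show how closely these genes are packed. The last 24 bases of each are given 5′ to 3′ from the GENCODE transcripts, with the stop codon, or the part of it that the gene encodes, in capitals.
mt-Nd1: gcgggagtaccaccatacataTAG
mt-Nd2: ctagccccccaactaattaccTAG
mt-Co1: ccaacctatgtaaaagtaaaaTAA
mt-Nd4: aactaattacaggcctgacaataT
mt-Nd5: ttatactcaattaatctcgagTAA
mt-Nd6: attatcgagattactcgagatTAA
mt-Cytb: acaaaatactaaaattatatccaT
The genes mt-Nd4 and mt-Cytb each run 1 base past their last full codon and end in a lone T. In such transcripts the poly(A) tail is known to complete the stop codon. No gene in this set carries an untranslated stretch after its stop codon in the annotation.

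Of the 9 members, 8 were above 10 CPM and 1, mt-Nd6, was below (limma on log2(CPM + 1), adjusted p under 0.05). Among all 11123 genes tested, 58.8% were above and 28.3% below. All 9 members had enough reads to be tested. The median member stood at 613 CPM, against 19.7 CPM for the median listed gene, and per kb of exons at 430 CPM, against 4.36 CPM. The counts of 8 and 1 were also given by edgeR and by DESeq2 on the recovered reads.

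Together the 9 genes took 0.802, 0.591 and 0.800% of the assigned reads of replicates 1, 2 and 3, or 0.731 ± 0.121% (SD, n = 3). Their Wilson 95% intervals were 0.795 to 0.810%, 0.588 to 0.593% and 0.797 to 0.803%, and such intervals hold for counting error alone, because the sources used here name no molecular identifiers and reads then are not independent molecules. Replicate 2 was thus lower than the other libraries beyond the counting error of reads taken as independent. The 7 messenger RNAs took 0.651, 0.507 and 0.693% of reads and the 2 ribosomal RNAs 0.151, 0.0838 and 0.107%. These shares omit the mitochondrial genes that are not listed, and are therefore shares of the 9 listed genes and not of all mitochondrial RNA.

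Complex IV, cytochrome c oxidase, passes electrons to oxygen, and its catalytic core subunit is encoded by mt-Co1. This gene was the most abundant member in each library, at 2815, 2380 and 3122 CPM (2772 ± 373, SD, n = 3). Against 10 CPM its log2 level was 7.97 with an SE of 0.11 (limma adjusted p = 1.35e-24), and log2 levels below are on this scale. It ranked 23, 33 and 21 among all listed genes and held 35.1, 40.3 and 39.0% of the reads of the 9 members. Replicate 2 had the lowest level and the largest share. Replicate 1 exceeded replicate 2 by less for mt-Co1 (1.18-fold) and mt-Nd5 (1.19-fold) than for any other member, and whether those ratios differ was not tested. Against replicate 3, the levels of mt-Rnr2 and mt-Nd1 in replicate 2 were less reduced than that of mt-Co1.

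Complex III passes electrons from ubiquinol to cytochrome c, and mt-Cytb encodes cytochrome b, its mitochondrially encoded subunit. It was second in each library, at 1309, 990.0 and 1358 CPM (1219 ± 200, log2 level 6.78, SE 0.11, limma adjusted p = 1.86e-23). Its share of the members' reads was the steadiest for its size, at 16.3, 16.8 and 17.0%. Per kb of gene, mt-Co1 exceeded mt-Cytb 1.59, 1.78 and 1.70-fold. Per kb of start positions whose window of 75 bases is found in no other annotated transcript, a scale described with the nuclear copies, it did so 2.60, 2.91 and 2.78-fold.

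Complex I, NADH dehydrogenase, is the entry point of electrons from NADH, and 5 members encode its subunits. The highest was mt-Nd1, which encodes a membrane subunit, with 1002, 653 and 845 CPM (833 ± 175, log2 level 6.22, SE 0.11, limma adjusted p = 1.77e-22). The next was mt-Nd5, at 588, 493 and 758 CPM (613 ± 134, log2 level 5.78, limma adjusted p = 6.96e-22). The others of the plus strand were lower and close to each other. The gene mt-Nd4 was at 429, 320 and 492 CPM (413 ± 86.8, log2 level 5.21, limma adjusted p = 5.81e-21). The gene mt-Nd2 was at 360, 233 and 355 CPM (316 ± 72.1, log2 level 4.82, limma adjusted p = 5.06e-20). The subunits of mt-Nd2, mt-Nd4 and mt-Nd5 belong to the proton-pumping part of the membrane arm. Apart from mt-Nd6, the complex I genes thus spanned 316 to 833 CPM in their means, all under mt-Cytb and mt-Co1.

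The ribosomal RNA genes encode the RNAs of the mitochondrial ribosome, mt-Rnr1 that of the small subunit and mt-Rnr2 that of the large one. The gene mt-Rnr2 was at 944, 565 and 679 CPM (730 ± 194, log2 level 6.02, SE 0.12, limma adjusted p = 7.44e-22). The gene mt-Rnr1 was at 568, 273 and 391 CPM (411 ± 149, log2 level 5.16, SE 0.14, limma adjusted p = 1.47e-19). Both were highest in replicate 1 and lowest in replicate 2. There were 23.2, 16.5 and 15.4 ribosomal RNA reads per 100 messenger RNA reads of the members. Because the kit was one for mRNA and its capture of ribosomal RNA was not tested, these values are not ratios of the RNAs in the cells. Per kb, mt-Rnr2 exceeded mt-Rnr1 only 1.00, 1.25 and 1.05-fold, so most of their difference in CPM went with length (1582 against 955 bases).

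**Figure D1:**
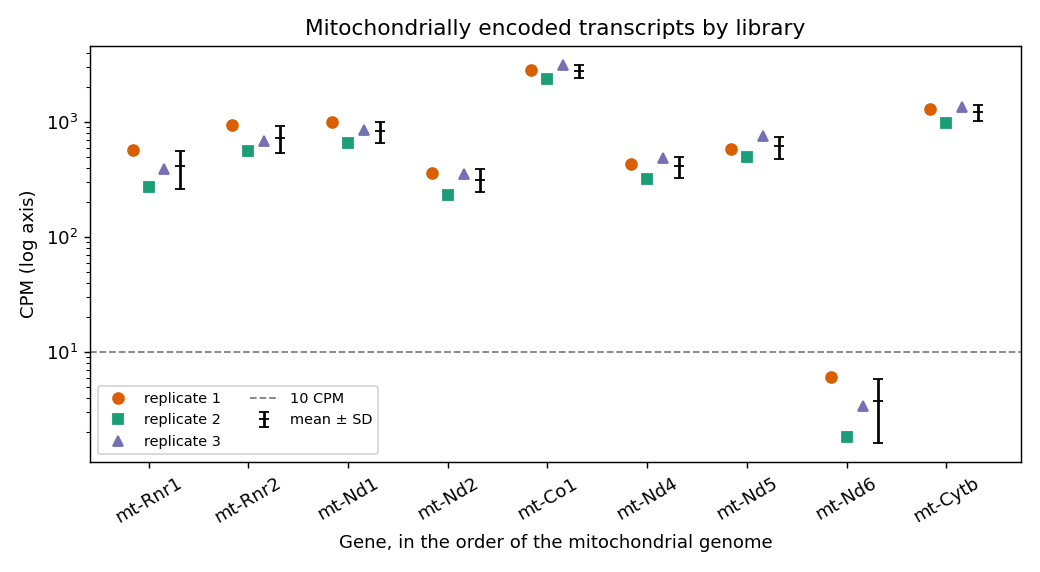
Levels of the 9 mitochondrially encoded genes, in CPM on a log axis, in the order of the mitochondrial genome. Each symbol is a library, black bars give the mean ± SD of 3 libraries, and the dashed line is 10 CPM, which every gene but mt-Nd6 exceeds in every library.

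The remaining complex I gene, mt-Nd6, was the only member below 10 CPM, at 6.02, 1.82 and 3.40 CPM (3.75 ± 2.12, log2 level -1.31, SE 0.30, limma adjusted p = 0.000317). Those values rested on 31, 73 and 128 reads, with Wilson 95% intervals of 4.24 to 8.54, 1.45 to 2.29 and 2.86 to 4.05 CPM. The intervals do not overlap, with replicate 1 highest and replicate 2 lowest, but the nearest bounds of replicates 1 and 3 (4.24 and 4.05 CPM) lie close. They treat reads as independent molecules, which is not known here, so a difference beyond counting error is not shown for those libraries. The SD was 56.6% of the mean, the largest of any member. Against a level of 5 CPM its log2 level was -0.44 and the call was lost (adjusted p = 0.171), and on recovered reads edgeR gave an adjusted p of 0.0111.

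Its strand and its bases set mt-Nd6 apart from the other members. In the RNA sense, 28.1% of its bases are G and 5.97% are C. In every other member G is 16.2% or less and C is 19.2% or more. For mt-Nd1, mt-Nd2, mt-Nd4 and mt-Nd5 the bounds are 11.6% or less and 25.8% or more. The first 60 bases are shown with each G in capitals, beside those of its neighbour mt-Nd5 and of mt-Co1, the highest member.
mt-Nd6: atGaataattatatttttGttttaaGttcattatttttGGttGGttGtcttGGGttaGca
mt-Nd5: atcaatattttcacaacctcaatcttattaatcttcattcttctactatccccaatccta
mt-Co1: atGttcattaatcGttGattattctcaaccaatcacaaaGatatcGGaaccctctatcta
The ends of mt-Nd5 and mt-Nd6 face each other and overlap by 14 bases (chrM:13552-13565), shown in capitals within the last 30 bases of each gene.
mt-Nd5: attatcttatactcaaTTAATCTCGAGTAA
mt-Nd6: tttattattatcgagaTTACTCGAGATTAA
Per kb of gene, mt-Nd5 exceeded mt-Nd6 27.8, 77.1 and 63.4-fold in replicates 1, 2 and 3. The strand setting of the counting was not given in the sources used here. Without it, reads from RNA of the opposite strand over mt-Nd6 cannot be told apart from its own. How well the kit for mRNA captured RNA of mt-Nd6 was not tested either.

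The order of the members was compared per kb of gene, since a longer RNA yields more fragments. It is an order of reads from a kit for mRNA, whose capture of each RNA was not tested. By mean CPM per kb the order was mt-Co1 (1794 ± 241), mt-Cytb (1066 ± 175), mt-Nd1 (871 ± 183), mt-Rnr2 (461 ± 123), mt-Rnr1 (430 ± 156), mt-Nd5 (336 ± 73.7), mt-Nd2 (305 ± 69.5), mt-Nd4 (300.01 ± 63.0) and mt-Nd6 (7.22 ± 4.09) (SD, n = 3). The first 4 places and the last were the same in 3 of 3 libraries, and the places between them were not. Within libraries the log2 ratio of neighbours was 0.76 ± 0.08 for mt-Co1 over mt-Cytb, 0.30 ± 0.15 for mt-Cytb over mt-Nd1, 0.93 ± 0.12 for mt-Nd1 over mt-Rnr2 and 5.52 ± 0.69 for mt-Nd4 over mt-Nd6. Each of those 4 was positive in 3 of 3 libraries and larger than its SD, with p = 0.25 in an exact two-sided sign-flip permutation test, which cannot give less with 3 libraries. The other 4 of the 8 neighbour pairs did not differ beyond their spread. They were mt-Rnr2 over mt-Rnr1 (0.13 ± 0.17), mt-Rnr1 over mt-Nd5 (0.31 ± 0.50), mt-Nd5 over mt-Nd2 (0.15 ± 0.22) and mt-Nd2 over mt-Nd4 (0.016 ± 0.12), with p of 0.25, 0.5, 0.5 and 1 in the same exact permutation test.

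Nuclear copies of mitochondrial DNA bear on these levels, because a read that matches a gene and a copy cannot be placed by its sequence. A cluster of 7 annotated pseudogenes on chromosome 1 (chr1:24611535-24616197, minus strand) matched mitochondrial genes in turn, from the end of mt-Co1 to the first part of mt-Nd4. None of these 7 pseudogenes was listed in the files. The copies of mt-Co2 (Gm28661, 681 bases), mt-Atp6 (Gm10925, 678 bases), mt-Co3 (Gm28437, 783 bases), mt-Nd4l (Gm10222, 294 bases) and the first 876 bases of mt-Nd4 (Gm28439) were identical to them. Over 483 aligned bases, Gm29216 differed from the end of mt-Co1 at a single base, A1066T, and over 345 bases Gm28438 differed from mt-Nd3 at T3C. Positions count from 1 at the 5′ end of the mitochondrial gene, and the mitochondrial base comes first. The stretches around these differences are shown with the differing base in capitals, in the sense of the mitochondrial gene (GRCm38, chrM:6390-6413 and chrM:9459-9481 on the plus strand, chr1:24616165-24616188 and chr1:24613097-24613119 on the minus strand).
mt-Co1: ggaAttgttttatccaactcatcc
Gm29216: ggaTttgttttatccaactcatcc
mt-Nd3: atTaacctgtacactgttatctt
Gm28438: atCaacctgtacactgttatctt
In mt-Nd4 the identical stretch stops within the gene, at the edge of the annotated copy. Bases 847 to 906 (chrM:11013-11072, plus strand) are shown with the bases past that edge in capitals.
mt-Nd4: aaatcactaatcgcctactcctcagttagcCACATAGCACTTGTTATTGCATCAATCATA

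All windows of 75 bases of each mitochondrial gene were searched for in every other annotated transcript, on both strands. For mt-Rnr1, mt-Rnr2, mt-Nd1, mt-Nd6 and mt-Cytb, 0% of windows were found in a nuclear transcript. The listed genes that shared windows were mt-Nd5 (1.66%), mt-Nd2 (5.71%), mt-Co1 (39.8%) and mt-Nd4 (61.5%). Among the genes not listed, mt-Nd3 shared 97.8%, mt-Nd4l 98.7%, mt-Co2 99.5%, mt-Atp6 99.5% and mt-Co3 99.9%. The listed messenger RNAs thus shared 61.5% of windows or less, against 97.8% or more for 5 of the 6 that are not listed. The exception was mt-Atp8, at 0%. It lies after mt-Co2 and overlaps mt-Atp6 by 43 bases (chrM:7927-7969). Those bases are identical to part of Gm10925, but the stretch is shorter than a window. The 233 bases between the copies of mt-Co2 and mt-Atp6 (chr1:24614652-24614884) hold no annotated transcript and were not searched. The sources used here do not give the read length, the gene filter or the treatment of reads with several matches, and the part of the copies in which genes are listed was not tested.

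**Figure D2:**
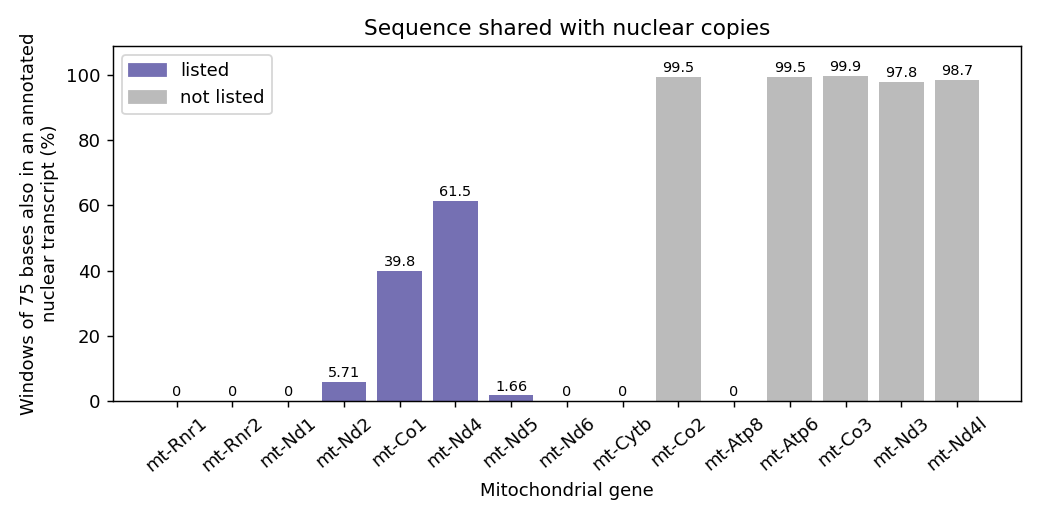
Share of the windows of 75 bases of each mitochondrial gene, in percent, that is also found in an annotated nuclear transcript. Listed genes are purple and messenger RNA genes that are not listed are grey, and the grey bars other than that of mt-Atp8 reach 97.8 to 99.9%.

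Other copies were less alike. On chromosome 2, Gm13340 (chr2:22588103-22589647, minus strand) matched the whole of mt-Co1 with 37 differences in 1545 bases, and its longest identical stretch was 148 bases. There Gm13339 matched 510 bases of mt-Nd2 with 17 differences and a longest identical stretch of 129 bases, and Gm13341 matched mt-Co2 over 684 aligned bases at 95.9% identity. On chromosome 13, Gm4076 matched 954 bases of mt-Nd5 at 95.2% identity. None of these pseudogenes was listed, so no level can be given for them. With windows of 50 bases the share of mt-Co1 found in nuclear transcripts was 51.1%, and with 100 bases it was 30.8%, whereas that of mt-Nd4 was 62.2 and 60.8%.

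When CPM was divided by the start positions whose window of 75 bases was found in no other annotated transcript, 2 members moved by more than 1.5 times. The level of mt-Nd4 became 824 ± 173 CPM per kb of 502 such positions, against 300.01 ± 63.0 per kb of gene, and its place was 4 and not 8. The level of mt-Co1 became 3132 ± 421, against 1794 ± 241, and it stayed first. This scale fits only if reads that match several places were left out of the counts, which is not given in the sources used here. The place of mt-Nd4 among the members thus depends on that choice, and those of mt-Co1, mt-Cytb, mt-Nd1 and mt-Nd6 were the same under both scales and with windows of 50, 75 and 100 bases.

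All 9 members were lowest in replicate 2. Among all tested genes 30.1% were lowest there, and among the 759 genes of at least 200 CPM on average 23.7% were. All 9 had a ratio of replicate 2 over replicate 3 under the lower quartile of those 759 genes (0.868). Their ratio of replicate 1 over replicate 2 was over the upper quartile (1.09). Both ratios use the same low replicate 2 and are no further observation of it. The gene mt-Nd6, at 3.75 CPM, lies far under the 200 CPM of the genes it is set against, so its ratios hold more counting error. With TMM scaling or DESeq2 size factors replicate 2 was still lowest for 9 of 9. The SD over libraries was 13.5% of the mean for mt-Co1 and 16.4% for mt-Cytb, 26.7% for mt-Rnr2 and 36.2% for mt-Rnr1, and 11.2% for the median of the 759 genes.

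The library with the highest level differed along the mitochondrial genome. The genes mt-Rnr1, mt-Rnr2, mt-Nd1 and mt-Nd2, which come first, were highest in replicate 1, as was mt-Nd6. The genes mt-Co1, mt-Nd4, mt-Nd5 and mt-Cytb, which come after them, were highest in replicate 3. The ratio of replicate 1 over replicate 3 was 1.45 for mt-Rnr1, 1.39 for mt-Rnr2, 1.19 for mt-Nd1, 1.01 for mt-Nd2, 0.902 for mt-Co1, 0.872 for mt-Nd4, 0.776 for mt-Nd5 and 0.964 for mt-Cytb. By point values it was thus lower at each step from mt-Rnr1 to mt-Nd5 and higher again at mt-Cytb. Among the 759 genes of at least 200 CPM on average, the median of this ratio was 0.923 and its quartiles were 0.781 and 1.12. Of the 9 members 1 lay under the lower quartile and 4 over the upper one, and the others lay within that range. Whether single steps, such as 1.45 to 1.39 or 0.902 to 0.872, exceed counting error was not tested. For mt-Nd2, replicates 1 and 3 did not differ beyond counting error. Its Wilson interval was 344 to 377 CPM in replicate 1, which holds that of 349 to 361 CPM in replicate 3. On the minus strand, mt-Nd6 had a ratio of 1.77. A scaling factor multiplies all of these ratios alike, and with TMM scaling or DESeq2 size factors mt-Cytb was highest in replicate 1 (ratios of 1.06 and 1.07). The ratio of mt-Co1 was then 0.990 and 0.999.

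The ratio of replicate 1 over replicate 2 ran in a like way, with 2.08 for mt-Rnr1, 1.67 for mt-Rnr2, 1.54 for mt-Nd1, 1.55 for mt-Nd2 and between 1.18 and 1.34 for the 4 plus-strand genes after them. It shares replicate 1 with the ratio above and is no second observation of it. The ratio of replicate 2 over replicate 3, which does not use replicate 1, stayed between 0.650 and 0.833 on the plus strand, at 0.698 for mt-Rnr1 and 0.729 for mt-Cytb. As a share of the members' reads, mt-Rnr1 held 7.08% in replicate 1 (Wilson 95% interval 6.84 to 7.34%), against 4.62% (4.54 to 4.71%) in replicate 2 and 4.88% (4.81 to 4.96%) in replicate 3. Replicate 1 was also the library of fewest reads and of the highest basophil, erythroid and megakaryocyte and the lowest eosinophil markers, whose part in these ratios was not tested.

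**Figure D3:**
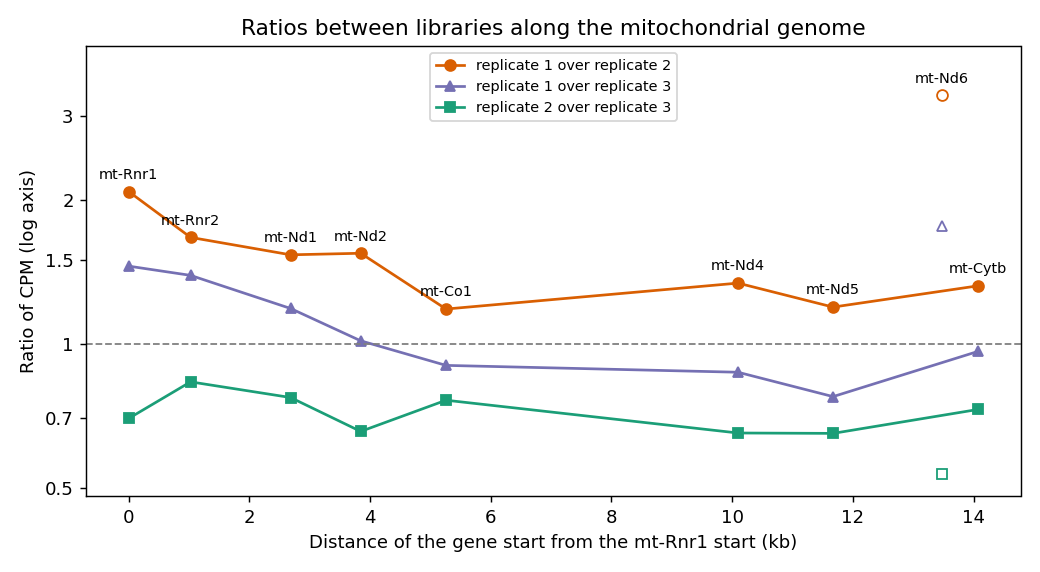
Ratios of CPM between libraries, on a log axis, against the distance of each gene's start from the start of mt-Rnr1 in kb, with genes of the plus strand as filled symbols and mt-Nd6 as open ones. The ratio of replicate 1 over replicate 3 is 1.45 at mt-Rnr1 and 0.776 at mt-Nd5, while that of replicate 2 over replicate 3 stays between 0.650 and 0.833 on the plus strand.

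Most respiratory chain subunits are encoded in the nucleus and imported into mitochondria. Of 79 nuclear genes of complexes I to IV and of ATP synthase, 77 were listed, 71 were above 10 CPM and 1 was below (limma, against 58.8 and 28.3% of all tested genes). Their median was 60.8 CPM. The most abundant was Atp5b, the catalytic beta subunit of ATP synthase, at 501 ± 28.8 CPM, under 5 of the 9 members. The lowest was Ndufb2, an accessory subunit of complex I, at 6.36 ± 0.31 CPM (log2 level -0.58, limma adjusted p = 0.0285), and its call was lost without replicate 2 (adjusted p = 0.125) or without replicate 3 (adjusted p = 0.0779). Atp5g2, a gene of the membrane ring of ATP synthase, was above at 15.2 ± 2.85 CPM (limma adjusted p = 0.0135), a call lost without replicate 1 (adjusted p = 0.0758).

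Per kb of exons, mt-Co1, mt-Cytb and the median of the complex I members stood higher than the median of their nuclear partners in every library. A single member went the other way, mt-Nd6, at 11.6, 3.50 and 6.56 CPM per kb. The median of the 5 complex I members was 322, 232 and 357 CPM per kb, against 36.5, 34.1 and 24.1 for 36 nuclear complex I genes, or 10.1 ± 4.15 times as high (SD, n = 3). The level of mt-Cytb was 27.5 ± 3.57 times the median of 9 nuclear complex III genes, and that of mt-Co1 30.1 ± 9.29 times the median of 11 nuclear complex IV genes. Each ratio was above 1 in 3 of 3 libraries (p = 0.25, exact two-sided sign-flip permutation test). How well the kit for mRNA captured mitochondrial and nuclear RNAs was not tested, so these are ratios of reads and not of RNAs in the cells. With mt-Co1 on unique start positions and windows of 75 bases, the ratio of complex IV was 52.6 ± 16.2. That is over 1.5 times the ratio per kb of gene, and with windows of 50 bases the ratio was 63.7 ± 19.6. In both, the nuclear median stayed per kb of all exons, so unlike scales are set side by side. Lengths of nuclear genes were those of all their annotated exons together, which can be longer than a single transcript and then lower their CPM per kb. In complex IV the level of Cox8a, a small accessory subunit, was 277 CPM per kb and that of Cox7c, another, was 26.0, both under that of mt-Co1.

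**Figure D4:**
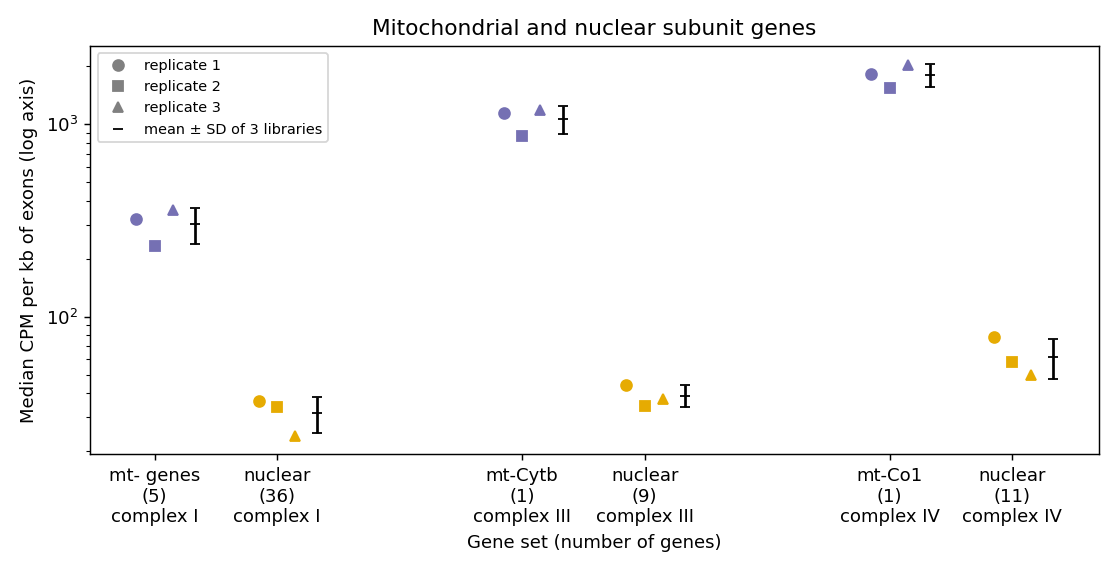
Median CPM per kb of exons, on a log axis, of mitochondrially encoded subunit genes (left of each pair) and nuclear subunit genes (right) of complexes I, III and IV, with a symbol for each of 3 libraries and bars for the mean ± SD. The mitochondrial medians lie above the nuclear ones in every library, for complex I at 232 to 357 against 24.1 to 36.5.

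As shares of reads, the sets compared as follows. The 7 mitochondrial messenger RNAs took 0.651, 0.507 and 0.693% of reads, against 0.702, 0.643 and 0.532% for the 77 nuclear genes, or 92.7, 78.9 and 130 mitochondrial per 100 nuclear reads. The sets are unlike, since 7 of 13 mitochondrial messenger RNAs were listed, against 77 of 79 nuclear genes. The nuclear set also holds complex II and ATP synthase, which have no member here. These values are therefore not the balance of all mitochondrial and nuclear messenger RNAs of the respiratory chain. The libraries with the lowest values differed between the sets. All 9 members were lowest in replicate 2, whereas 15 of the 77 nuclear genes were lowest there and 56 were lowest in replicate 3. Among all tested genes 30.1% were lowest in replicate 2. The share of them lowest in replicate 3 was not computed, so the count of 56 has no background here.

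The proteins that copy the mitochondrial genome and transcribe, process and translate its RNA are encoded in the nucleus. Of 56 genes of such proteins in 4 lists, 53 were listed, 18 were above 10 CPM and 23 below (against 58.8% above and 28.3% below among all tested genes), with a median of 10.02 CPM. In DNA maintenance 6 of 16 were above and 8 below. Polg, the catalytic subunit of the mitochondrial DNA polymerase, was at 118 ± 5.40 CPM and Tk2, a thymidine kinase that feeds mitochondrial DNA synthesis, at 50.6 ± 10.8 CPM. Top1mt, a mitochondrial topoisomerase, was below at 1.59 ± 0.994 CPM. In transcription 1 of 6 listed genes was above and 2 were below. The one above was Mterf4, of a family of mitochondrial transcription and ribosome factors, at 14.0 ± 0.611 CPM (limma adjusted p = 0.0379), a call lost without replicate 2 (adjusted p = 0.194) or without replicate 3 (adjusted p = 0.0703). Polrmt, the mitochondrial RNA polymerase, was at 8.35 ± 1.22 CPM and Tfam, which packs the genome and starts its transcription, at 11.6 ± 2.06 CPM, neither called either way. That rests on the level of 10 CPM. Against 5 CPM both were above (limma adjusted p = 0.0134 for Polrmt and 8.14e-05 for Tfam). Against 20 CPM both were below (limma adjusted p = 5.57e-05 and 0.00231). Tfb2m, the partner of the polymerase at the promoter, was below at 2.67 ± 1.07 CPM, as was the elongation factor Tefm at 2.79 ± 0.280 CPM.

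In RNA processing and stability 8 of 21 listed genes were above and 7 below, a share above that is under the 58.8% of all tested genes and a share below that is near their 28.3%. Hsd17b10, a subunit of the enzyme that cuts the 5′ ends of transfer RNAs, was at 51.2 ± 4.70 CPM, and Grsf1, an RNA-binding protein of mitochondrial RNA granules, at 36.3 ± 3.40 CPM. Fastkd1 (2.19 ± 1.39) and Fastkd3 (2.14 ± 0.356), of a family of mitochondrial RNA regulators, were below. Of 11 translation factors 3 were above and 6 below, set against the same 58.8 and 28.3%, with the elongation factors Tufm at 25.2 ± 6.35 CPM and Gfm1 at 22.4 ± 6.33 CPM, and Mtrf1 below at 3.30 ± 0.712 CPM. These calls depended on the level chosen, since at 20 CPM those of Tufm (limma adjusted p = 0.137) and Gfm1 (adjusted p = 0.567) were lost, and at 5 CPM that of Mtrf1 (adjusted p = 0.101). Of 8 listed regulators of mitochondrial biogenesis 7 could be tested, and 6 were above and 0 below, where 58.8 and 28.3% of all tested genes were. They included the transcription factors Yy1 (103 ± 7.74), Nrf1 (56.0 ± 4.2), Esrra (47.2 ± 7.64) and Gabpa (43.3 ± 5.29). Ppargc1b, a coactivator, had too few reads to be tested, with 0, 0.174 and 0 CPM.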

How the data were processed

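Messenger RNA was sequenced in 3 libraries of 1 sorted population. The authors deposited CPM per gene and library, and the submitters' processing notes name FastQC, STAR, featureCounts and edgeR with the builds mm10 and GRCh38, without versions or roles. From 11463 entries per file, 44 repeats of a gene were dropped, which left 11419 genes. Whole reads were recovered from the CPM for 100% of values, within 0.01 reads. At 10 CPM a gene had 51.5, 401 and 376 reads in replicates 1, 2 and 3.

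Levels were tested against 10 CPM with limma 3.58.1 in R 4.3.3 on log2(CPM + 1), with an intercept, trended empirical Bayes moderation and Benjamini-Hochberg adjustment over 11123 genes with at least 10 recovered reads. A fold on that scale understates that of low genes. The script was tested on simulated data. Alternatives were edgeR 4.0.16 and DESeq2 1.42.0 on recovered reads (both against the same level), other scalings, pseudocounts, filters and levels, and leaving out each library. The edgeR statistic was computed from the fitted deviances, since its test function takes no design of 1 column.

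Lengths and sequences came from GENCODE M21. Copies were found with BLASTN 2.17.0 among annotated transcripts, at 300 aligned bases and 95% identity or more for naming. Shorter copies are named where they belong to the cluster on chromosome 1. Members and lists were chosen with earlier results of these data known. Named genes were all members, such copies, and in each list members among the 4 of highest and 2 of lowest mean. The 4 genes of the sort gate were named too. No other column of per-sample values was present.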

Additional observations from a re-analysis of the deposited data

How the results depend on the processing

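The count of 8 members above 10 CPM was the same under all 11 alternatives run. The count of mitochondrial genome expression genes above the level was 18, against 29 at a level of 5 CPM and 7 at 20 CPM, where the level itself was changed. Leaving out each library in turn gave 8 members, 69 to 71 nuclear respiratory chain genes, 15 to 20 mitochondrial genome expression genes, 6269 to 6547 genes in all and a share of 0.696 to 0.801%. Of the members, the call of mt-Nd6 was lost at 5 CPM only. The size of the p-values depended on the filter. Without the filter on low values the limma adjusted p was 1.49e-05 for mt-Co1, against 1.35e-24 with it. For mt-Nd6 it was 0.0190, against 0.000317, and the log2 levels were the same. Among the named nuclear genes, log2 levels changed sign at 5 CPM for Ndufs5 (0.68), Ndufb2 (0.29), Polrmt (0.63) and Pprc1 (0.72), and at 20 CPM for Atp5g2 (-0.39), Mterf4 (-0.49), Mterf3 (-0.65), Tfam (-0.75), Mtif3 (-0.093) and Gfm2 (-0.66), again because the level was changed. Calls of 7 other such genes were lost in the same way, at 20 CPM for Uqcrb, Usmg5, Ssbp1, Tufm and Gfm1 and at 5 CPM for Mtfmt and Mtrf1. Leaving out a library turned the sign of 3 genes that were not called, and the cause was not tested. Over such fits the log2 level ran between -0.41 and 0.091 for Ndufs5, between -0.037 and 0.46 for Gfm2, and between -0.49 and 0.037 for Pprc1. Gfm2 was called above without replicate 1 (limma adjusted p = 0.0467). The levels per kb that moved beyond their spread were those of mt-Co1 and mt-Nd4 on unique start positions, a choice made after the data were seen. Adding listed nuclear copies left the share at 0.731%, as none is listed. The planned search of windows in the whole genome was not run, because no genome sequence was used here, and annotated transcripts took its place. No paired analysis was possible because there is 1 group. With 3 libraries no exact test over libraries can go under 0.25, and mt-Nd6 rests on 31 reads in replicate 1.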
